A study of Mus musculus with 12 samples.

Results

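The genes Pla2g4a, Ptgs1, Ptgs2, Ptges, Hpgds, Tbxas1, Alox5, Alox5ap, Lta4h and Ltc4s of prostaglandin and leukotriene synthesis were followed through 12 RNA sequencing libraries of mouse bone marrow-derived macrophages. They were taken by symbol from a named list, which was chosen with earlier results of these data known. All 10 of 10 were found among the 16145 genes that appear in at least 1 library. All 10 also passed the filter on low counts, among 12148 genes tested. Macrophages were grown from marrow for 7 days with M-CSF, the growth factor of the macrophage lineage, and formed 4 groups of 3 libraries. Wild-type (WT) cells received vehicle for 12 h, hemin (oxidised heme) at 15 µM for 12 h, or 4-OI (4-octyl itaconate, an itaconate ester that enters cells) at 120 µM for 15 h. Cells of Irg1KO mice received vehicle for 12 h. Irg1 is the older name of Acod1, whose product makes itaconate. The longer time of the 4-OI cultures cannot be told apart from the compound. None of the labels says whether replicates are separate animals or separate dishes, so the p-values below compare libraries whose spread may be technical. No inflammatory stimulus is named for any group.

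Both families of lipid mediator start from arachidonic acid, which cytosolic phospholipase A2 (Pla2g4a) frees from membranes. The cyclooxygenases Ptgs1 (mostly constitutive) and Ptgs2 (inducible in macrophages) turn it into prostaglandin H2, which separate synthases convert to prostaglandin E2, prostaglandin D2 or thromboxane A2. In the other branch 5-lipoxygenase (Alox5), helped by its activating protein (Alox5ap), makes leukotriene A4, which Lta4h converts to leukotriene B4 and Ltc4s to leukotriene C4. Macrophages can make products of both branches. Lipids were not measured, and the values below are transcript levels.

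The libraries held 9405112 to 22390882 expected counts. Levels within a gene are counts after TMM scaling to a shared library size (CPM), as mean ± SD with n = 3, and levels between genes are FPKM, which divide by transcript length. A gene was called at an adjusted p under 0.05 in edgeR's quasi-likelihood test, over all genes tested. Macrophage markers were abundant in all libraries: the 9 genes, among them Adgre1, Csf1r and Lyz2, summed to 23712 to 27397 CPM. Lyz2 was the largest part of the sum, with a mean of 16782 CPM with vehicle. Mean levels of Mrc1, Cd14 and Fcgr1 were lower with 4-OI than with vehicle (484 against 1496, 44.8 against 71.1 and 191 against 240 CPM). Those of the other macrophage markers were higher with 4-OI. Mrc1 was at 1001 CPM with hemin. Of 10 mast cell markers, 7 were listed, with a sum of at most 1.59 CPM. Cpa3, Cma1, Mcpt4 and Ms4a2 were each at 1 count or none in any library, while Gata2 was above 0 in all 12, at up to 22 counts. Summed fibroblast and stroma markers were at 10374 to 11636 CPM in the knockout libraries and 1714 to 2111 CPM in WT vehicle, with all 10 genes listed, Col1a1 the highest, and Dcn and Lum at 9 counts or fewer. Neutrophil markers, 7 of 8 listed, summed to 337 to 358 CPM with 4-OI and 81.9 to 92.1 CPM with vehicle, mostly Mmp8 (313 against 79.5 CPM). S100a8 was at 31.2 CPM with 4-OI and 2.39 CPM with vehicle, while Ly6g was not listed and Elane had at most 4 counts, and the part of these markers in the 4-OI differences was not tested. Lymphocyte markers summed to at most 0.0790 CPM, dendritic cell markers to at most 2.10 CPM and basophil and eosinophil markers to 6.47 to 10.5 CPM, mostly Ccr3. Acod1 counts did not separate the genotypes in the main fit (log2 fold change -0.48, SE 0.26, adjusted p = 0.194). Acod1 was called lower in the knockout by counts without the filter on low counts (-0.5, adjusted p = 4.38e-09). By FPKM with 1 added it was also called lower (-0.71, adjusted p = 0.0150). Its mean transcript length was 3217 ± 144 nucleotides in the knockout and 2644 ± 9.09 in WT vehicle. Hmox1, the heme oxygenase induced by heme, rose by 2.97 with hemin and 2.26 with 4-OI, and Nqo1, a target of NRF2, by 0.80 and 2.80. Alox5ap, Ltc4s, Ptgs1 and Tbxas1 each overlap a predicted gene on the opposite strand, and whether counting used strand is not given in the sources used here, so reads of such pairs cannot be told apart.

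With 4-OI, 5 of the genes rose and 3 fell. Transcripts of Pla2g4a and Alox5ap were 2.01-fold and 2.12-fold higher, Ptges and Ptgs2 were 1.87-fold and 1.51-fold higher, and Lta4h was 1.19-fold higher. Hpgds, Alox5 and Ltc4s fell. In all, 8 of the 10 genes were called, 5 higher and 3 lower, where 50.4% of all genes tested were called, 25.4% higher and 25.0% lower. The median log2 fold change was 0.18 over the 10 genes and -0.003 over all genes, and the median size without sign was 0.63 against 0.24. On the FPKM scale the calls over all genes split differently, 1743 higher and 4608 lower in place of 3083 and 3043, and the all-gene median moved to -0.105. For the 10 genes that scale called 4 higher and 4 lower with 1 added to FPKM, and 3 higher and 4 lower with 0.1 added.

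With hemin, Ptges rose most, to 2.19-fold, and Alox5ap, Alox5, Tbxas1 and Pla2g4a rose by less. Ptgs2 and Hpgds fell to 0.551 and 0.684 of the vehicle level. The test called 7 of 10 genes, 5 higher and 2 lower, against a background of 17.2% of all genes, 9.48% higher and 7.74% lower. Their median log2 fold change was 0.09 (all genes, -0.006), and the median size was 0.34 (all genes, 0.12). Over all genes, 1152 were higher and 940 lower by counts, and 621 and 1422 by FPKM.

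In the Irg1KO cultures, Ptgs2 and Ptges rose, 2.62-fold and 2.43-fold, and Ptgs1, Hpgds, Tbxas1 and Ltc4s fell. Those are 6 calls among 10 genes, 2 higher and 4 lower, where 39.8% of all genes were called, 23.5% higher and 16.3% lower. Pla2g4a, Alox5, Alox5ap and Lta4h had log2 fold changes of -0.11 to 0.06, and none of these 4 was called. The median was -0.10 for the 10 genes and 0.00 for all genes, with median sizes of 0.42 and 0.16. The part of the stroma markers in these differences was not tested.

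Between 4-OI and hemin, which differ in compound, dose and hours, 8 of 10 genes were called. Ptgs1, Ptgs2, Pla2g4a, Alox5ap and Lta4h were higher with 4-OI, and Hpgds, Tbxas1 and Alox5 were higher with hemin. The background was 42.3% of genes called, 20.6% higher and 21.7% lower with 4-OI, a split of 2500 and 2636 that became 1726 and 3490 by FPKM. The 3 comparisons with WT vehicle share its 3 libraries, so their values are set side by side and their likeness is not tested.

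**Figure D1:**
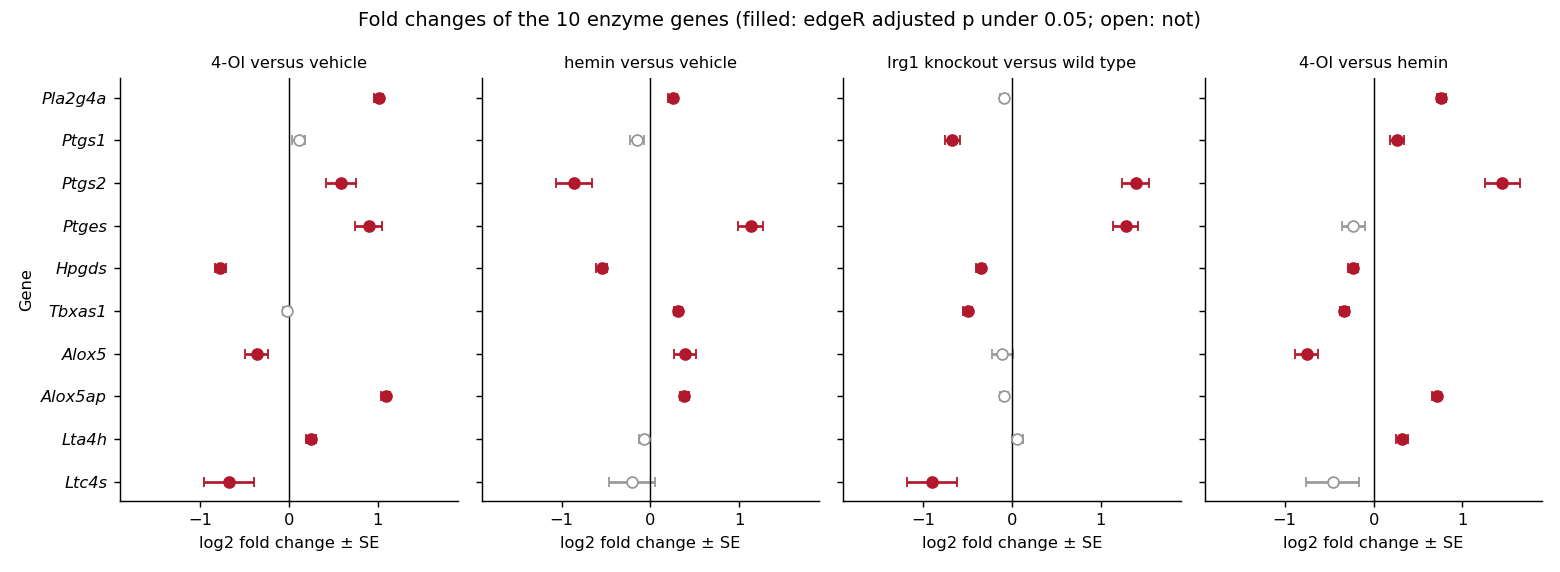
Log2 fold changes of the 10 genes in the 4 comparisons (x axis: log2 fold change ± SE from edgeR; y axis: genes in pathway order; filled points: adjusted p under 0.05). Ptges lies right of 0 and Hpgds left of 0 in each comparison with vehicle, while Ptgs2 is at 0.59 with 4-OI, -0.86 with hemin and 1.39 in the knockout.

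Arachidonate release was represented by Pla2g4a. Its levels were 100, 107 and 101 CPM in the vehicle libraries and 209, 209 and 204 CPM with 4-OI. With hemin they were 127, 118 and 124 CPM, and in the knockout 96.4, 96.2 and 97.2 CPM. The 4 groups were ordered 4-OI, hemin, vehicle and knockout with no overlap between neighbours. The increase with 4-OI was 1.01 on the log2 scale (SE 0.05, adjusted p = 6.05e-20) and that with hemin 0.25 (SE 0.05, adjusted p = 1.92e-04). The knockout difference of -0.09 missed the threshold (adjusted p = 0.122) and passed it at -0.12 with RLE factors (adjusted p = 0.0437) and by FPKM. Without a count of cells, fewer cells that carry a transcript and less of it per cell cannot be told apart, here or below.

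The pair of cyclooxygenase genes moved in opposite directions in the knockout. Ptgs1 was at 35.7, 35.6 and 33.2 CPM with vehicle, 36.2, 39.2 and 37.9 CPM with 4-OI and 30.9, 33.1 and 30.7 CPM with hemin. In the knockout it was at 22.1, 24.2 and 19.0 CPM. The knockout libraries lay below all others, and the wild-type groups differed little though without overlap. The fall in the knockout was -0.67 on the log2 scale (SE 0.08, adjusted p = 4.40e-09). With 4-OI (0.11, adjusted p = 0.220) and hemin (-0.15, adjusted p = 0.205) Ptgs1 was not called, and the sign with 4-OI turned to -0.02 by FPKM.

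Ptgs2 was at 16.7, 13.2 and 13.2 CPM with vehicle and 23.3, 21.4 and 20.2 CPM with 4-OI. Hemin libraries held 11.7, 6.94 and 6.15 CPM, and knockout libraries 36.2, 42.9 and 33.5 CPM. The order was knockout, 4-OI, vehicle and hemin, and no group overlapped the next, although hemin replicate 1 lay well above the other two. Ptgs2 had the highest fold change of the 10 genes in the knockout, 1.39 on the log2 scale (SE 0.15, adjusted p = 8.40e-06), and it differed by 1.45 between 4-OI and hemin (SE 0.20, adjusted p = 5.13e-05). The increase with 4-OI was 0.59 (SE 0.17, adjusted p = 0.0105) and the fall with hemin -0.86 (SE 0.20, adjusted p = 0.0102). Each of these 2 calls was lost without 1 library: without vehicle replicate 2 the 4-OI value was 0.52 (adjusted p = 0.0528), and without hemin replicate 2 the hemin value was -0.76 (adjusted p = 0.0644). With 1 added to FPKM, which compresses low levels, the 4-OI value was 0.36.

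The ratio of Ptgs2 to Ptgs1 FPKM within a library shows both changes at once. It was 0.298, 0.236 and 0.252 with vehicle, 0.409, 0.347 and 0.338 with 4-OI, and 0.241, 0.133 and 0.127 with hemin. In the knockout it was 1.04, 1.13 and 1.12, so that Ptgs2 was at or above the level of Ptgs1 per transcript length only in those 3 of the 12 libraries. The hemin and vehicle libraries overlapped in this ratio. This ratio and those below were chosen after the values were seen and carry no test.

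RefSeq promoter windows, on build GRCm38.p6 and not on the build of the deposited tables, were found for 9 of the 10 genes. Alox5ap had none and was not searched. They were searched on both strands for 8 short motifs, from 250 bases before to 50 bases after the annotated start. The cyclooxygenase promoters are printed because these 2 genes went in opposite directions in the knockout. Capitals mark motif matches in the 250 bases before the start, 5′ to 3′ on the strand of the gene: in Ptgs1 (chr2:36230176-36230425, plus strand) a PU.1 element (AGGAAGT), and in Ptgs2 (chr1:150099781-150100030, plus strand) a GC box (GGGCGG) and a C/EBP element (TTGCNNAA). The stretch of Ptgs2 from base 5 to base 28 after the start (chr1:150100035-150100058, plus strand) holds a cyclic AMP response element half-site (CGTCA) that shares bases with an E-box (CACGTG).
Ptgs1: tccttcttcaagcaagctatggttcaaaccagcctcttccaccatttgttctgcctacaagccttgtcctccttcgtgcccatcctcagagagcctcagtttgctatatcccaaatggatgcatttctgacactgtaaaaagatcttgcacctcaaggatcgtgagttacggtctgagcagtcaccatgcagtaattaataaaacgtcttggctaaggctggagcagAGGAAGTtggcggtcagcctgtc
Ptgs2: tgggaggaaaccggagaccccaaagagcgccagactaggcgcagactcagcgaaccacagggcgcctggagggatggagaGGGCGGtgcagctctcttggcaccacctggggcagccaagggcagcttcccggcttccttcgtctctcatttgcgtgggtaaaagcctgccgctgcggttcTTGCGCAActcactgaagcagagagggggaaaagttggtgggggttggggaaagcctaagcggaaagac
Ptgs2 after the start: tcaccactaCGTCACGTGgagtcc
Among 32851 promoter windows of 300 bases, 9.35% hold the PU.1 element, 35.7% the GC box, 10.8% the C/EBP element, 20.8% the CRE half-site and 7.15% the E-box. Among the member windows the last 2 motifs were matched in Ptgs2 alone. The antioxidant response element core (TGACNNNGC) is in 12.4% of windows and was matched in none of the member windows. A match describes letters in a window and was not set against binding data.

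Among the terminal prostanoid synthases Ptges rose and Hpgds fell in each comparison with vehicle. Ptges, the inducible prostaglandin E synthase, was at 4.47, 5.66 and 6.21 CPM with vehicle and 11.2, 10.0 and 8.80 CPM with 4-OI. It was at 9.54, 11.7 and 13.8 CPM with hemin and 14.0, 11.8 and 13.9 CPM in the knockout. All 9 other libraries lay above the 3 vehicle libraries, while the 4-OI, hemin and knockout groups overlapped their neighbours. The log2 fold changes were 0.90 (SE 0.15, adjusted p = 2.40e-06), 1.13 (SE 0.14, adjusted p = 1.46e-07) and 1.28 (SE 0.14, adjusted p = 5.91e-10). 4-OI and hemin were not separated (-0.23, adjusted p = 0.172), except without hemin replicate 1 (-0.34, adjusted p = 0.0492). Ptges had the lowest vehicle FPKM of the 10 genes, and the mean length behind its counts was 3980 ± 136 nucleotides with vehicle and 3751 ± 40.6 in the knockout, so that counts and FPKM do not weigh its transcripts alike. With 1 added to FPKM, which compresses such low levels, the values were 0.52, 0.75 and 0.93. With 0.1 added the 4-OI value was 0.76.

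Hpgds, the hematopoietic prostaglandin D synthase, went the other way. It was at 194, 184 and 191 CPM with vehicle, 107, 111 and 116 CPM with 4-OI, 142, 117 and 131 CPM with hemin and 140, 151 and 156 CPM in the knockout. Every vehicle library was above every other library, and hemin and knockout overlapped. It fell by 0.77 with 4-OI (SE 0.06, adjusted p = 6.45e-14), by 0.55 with hemin (SE 0.06, adjusted p = 3.25e-09) and by 0.35 in the knockout (SE 0.05, adjusted p = 3.03e-06). The fall was larger with 4-OI than with hemin (-0.23 between them, adjusted p = 0.00199). Hpgds is also made by mast cells, whose listed markers summed to at most 1.59 CPM, and their part in the Hpgds values was not tested.

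Tbxas1, thromboxane A synthase, was at 119, 114 and 116 CPM with vehicle and 121, 115 and 108 CPM with 4-OI, which overlap. With hemin it was at 150, 148 and 134 CPM, above all other libraries, and in the knockout at 80.7, 81.0 and 85.8 CPM, below all others. It rose by 0.31 with hemin (SE 0.05, adjusted p = 2.78e-05) and fell by 0.50 in the knockout (SE 0.05, adjusted p = 6.50e-10). With 4-OI the difference was -0.02 (adjusted p = 0.787). It was 0.02 without 4-OI replicate 3, while by FPKM the gene was called lower with 4-OI at -0.16, where the median of all genes lies at -0.105. Thromboxane synthase is abundant in platelets, and summed megakaryocyte and platelet markers, 7 of 8 listed, were at 2.32 to 2.64 CPM with vehicle, 4.83 to 7.05 CPM with 4-OI, 1.62 to 2.65 CPM with hemin and 3.24 to 4.42 CPM in the knockout. Every 4-OI and knockout library was thus above every vehicle library, with Ppbp at 3.69 CPM with 4-OI and 0.583 CPM with vehicle, Gp9 and Gp6 at 1 count or none, and their part in the Tbxas1 values was not tested.

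The ratio of Hpgds to Ptges FPKM was 61.0, 44.2 and 39.5 in the vehicle libraries. It lay at 12.5 to 16.2 with 4-OI, 12.4 to 19.2 with hemin and 12.7 to 16.1 in the knockout. The 3 groups overlapped in this ratio. In the plot of ratios by library this pair shows the vehicle libraries apart from the 9 others.

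**Figure D2:**
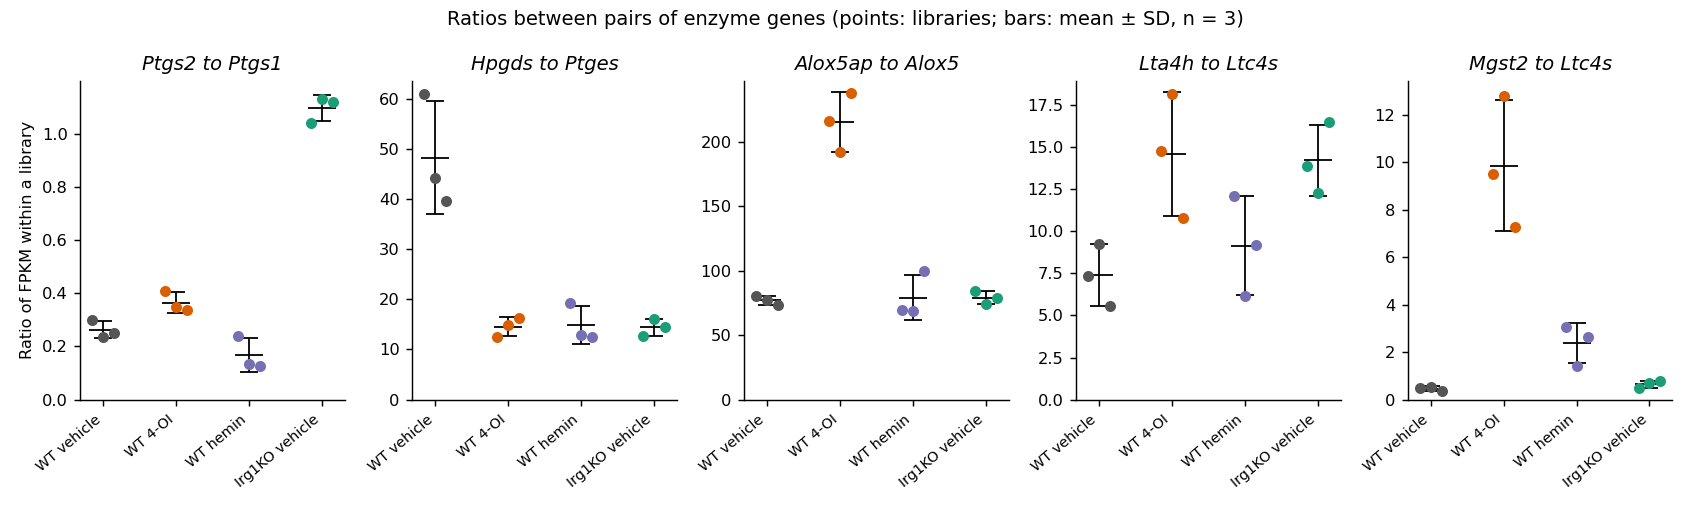
FPKM ratios between 5 pairs of genes in each library (y axes: ratio, from 0; points: libraries; bars: mean ± SD, n = 3). The Ptgs2 to Ptgs1 ratio is above 1 only in the 3 knockout libraries, and the Hpgds to Ptges ratio is highest in the 3 vehicle libraries.

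The promoter windows of these 3 synthases are printed as the genes that rose in all comparisons with vehicle (Ptges), fell in all (Hpgds) and turned between hemin and knockout (Tbxas1). Capitals mark 2 GC boxes (GGGCGG) in Ptges (chr2:30903298-30903547, minus strand), a C/EBP element (TTGCNNAA, on the reverse strand) and a PU.1 element (AGGAAGT) in Hpgds (chr6:65144731-65144980, minus strand), and an AP-1 element (TGANTCA) and a TATA box in Tbxas1 (chr6:38918736-38918985, plus strand). The TATA box (TATAAA) of Tbxas1 is matched on both strands by overlapping letters, which are capitalised together.
Ptges: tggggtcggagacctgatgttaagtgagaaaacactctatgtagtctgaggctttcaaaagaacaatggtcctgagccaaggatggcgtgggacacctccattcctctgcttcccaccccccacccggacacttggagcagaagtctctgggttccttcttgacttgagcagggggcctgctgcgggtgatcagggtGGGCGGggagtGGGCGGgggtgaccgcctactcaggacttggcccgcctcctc
Hpgds: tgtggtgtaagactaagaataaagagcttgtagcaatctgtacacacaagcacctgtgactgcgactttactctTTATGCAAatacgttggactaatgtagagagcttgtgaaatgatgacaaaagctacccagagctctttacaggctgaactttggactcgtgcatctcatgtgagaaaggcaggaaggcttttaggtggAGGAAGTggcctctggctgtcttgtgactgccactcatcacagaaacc
Tbxas1: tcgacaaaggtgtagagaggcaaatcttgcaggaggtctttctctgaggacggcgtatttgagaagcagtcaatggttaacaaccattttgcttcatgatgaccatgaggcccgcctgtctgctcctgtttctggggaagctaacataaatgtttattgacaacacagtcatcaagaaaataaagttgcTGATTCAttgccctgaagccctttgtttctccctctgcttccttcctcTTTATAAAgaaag
The AP-1 element is in 7.81% and the TATA box in 13.6% of all windows. No motif was shared by all 3. The PU.1 element, also matched in the windows of Ptgs1, Ltc4s and 1 of 2 windows of Pla2g4a, occurs in genes that rose and in genes that fell.

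The 5-lipoxygenase step differed between enzyme and helper. Alox5ap was at 365, 348 and 355 CPM with vehicle and 731, 787 and 751 CPM with 4-OI. It was at 451, 486 and 449 CPM with hemin and 334, 317 and 356 CPM in the knockout. The 4-OI libraries stood highest and the hemin libraries next, both clear of vehicle, while knockout and vehicle overlapped. The increase was 1.09 with 4-OI (SE 0.05, adjusted p = 2.38e-20) and 0.38 with hemin (SE 0.05, adjusted p = 3.46e-07), with 0.71 between them (SE 0.05, adjusted p = 9.70e-15). The knockout value of -0.09 (adjusted p = 0.171) passed the threshold only without knockout replicate 3 (-0.14, adjusted p = 0.0478).

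Alox5 itself was at 13.6, 13.7 and 14.7 CPM with vehicle and 10.2, 12.4 and 9.55 CPM with 4-OI. It was at 19.7, 21.6 and 13.8 CPM with hemin and 12.1, 13.0 and 13.8 CPM in the knockout. The 4-OI libraries lay below vehicle, while hemin replicate 3 fell within the vehicle range. The log2 fold change was -0.36 with 4-OI (SE 0.13, adjusted p = 0.0223) and 0.39 with hemin (SE 0.12, adjusted p = 0.0249), and -0.75 between the compounds (SE 0.13, adjusted p = 2.66e-05). The 4-OI call was lost without 4-OI replicate 1 (-0.32, adjusted p = 0.0920), without 4-OI replicate 3 (-0.30, adjusted p = 0.0935) and without vehicle replicate 3 (-0.33, adjusted p = 0.0634). The hemin call was lost in 7 of 15 alternatives, among them without hemin replicate 1 (0.34, adjusted p = 0.0832), hemin replicate 2 (0.23, adjusted p = 0.264), vehicle replicate 1 (0.38, adjusted p = 0.0816) and vehicle replicate 2 (0.37, adjusted p = 0.0789). The difference between the compounds was called in all 15.

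Alox5ap FPKM exceeded Alox5 FPKM by 80.3, 77.0 and 73.7 times in the vehicle libraries. The ratio was 216, 192 and 238 with 4-OI, 69.5, 68.6 and 99.4 with hemin and 84.0, 73.8 and 78.9 in the knockout. Only the 4-OI libraries stood clear of the vehicle range as a group.

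Of the 2 genes that use leukotriene A4, Lta4h was at 68.8, 61.4 and 60.1 CPM with vehicle and 80.9, 70.1 and 75.0 CPM with 4-OI. It was at 59.6, 63.1 and 58.3 CPM with hemin and 67.8, 62.3 and 68.3 CPM in the knockout. The 4-OI libraries were above the rest, and the other groups overlapped. The increase with 4-OI was 0.25 (SE 0.06, adjusted p = 0.00132). By FPKM it was 0.10 and not called (adjusted p = 0.198), on a scale whose all-gene median was -0.105.

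Ltc4s had the lowest CPM of the 10 genes. It was at 2.50, 1.77 and 2.97 CPM with vehicle, 1.53, 1.07 and 1.93 CPM with 4-OI, 1.38, 2.73 and 1.76 CPM with hemin and 1.30, 1.36 and 1.03 CPM in the knockout. The knockout libraries lay below vehicle, while the other neighbours in the order overlapped. It fell by 0.90 in the knockout (SE 0.28, adjusted p = 0.00924), a call kept in all 15 alternatives. The 4-OI value of -0.67 (SE 0.28, adjusted p = 0.0470) was lost in 7 of 15, among them without 4-OI replicate 1 (-0.71, adjusted p = 0.0837), 4-OI replicate 2 (-0.44, adjusted p = 0.269), vehicle replicate 1 (-0.61, adjusted p = 0.119) and vehicle replicate 3 (-0.52, adjusted p = 0.166). With 13 to 42 counts per library, depth limits this gene in every comparison.

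**Figure D3:**
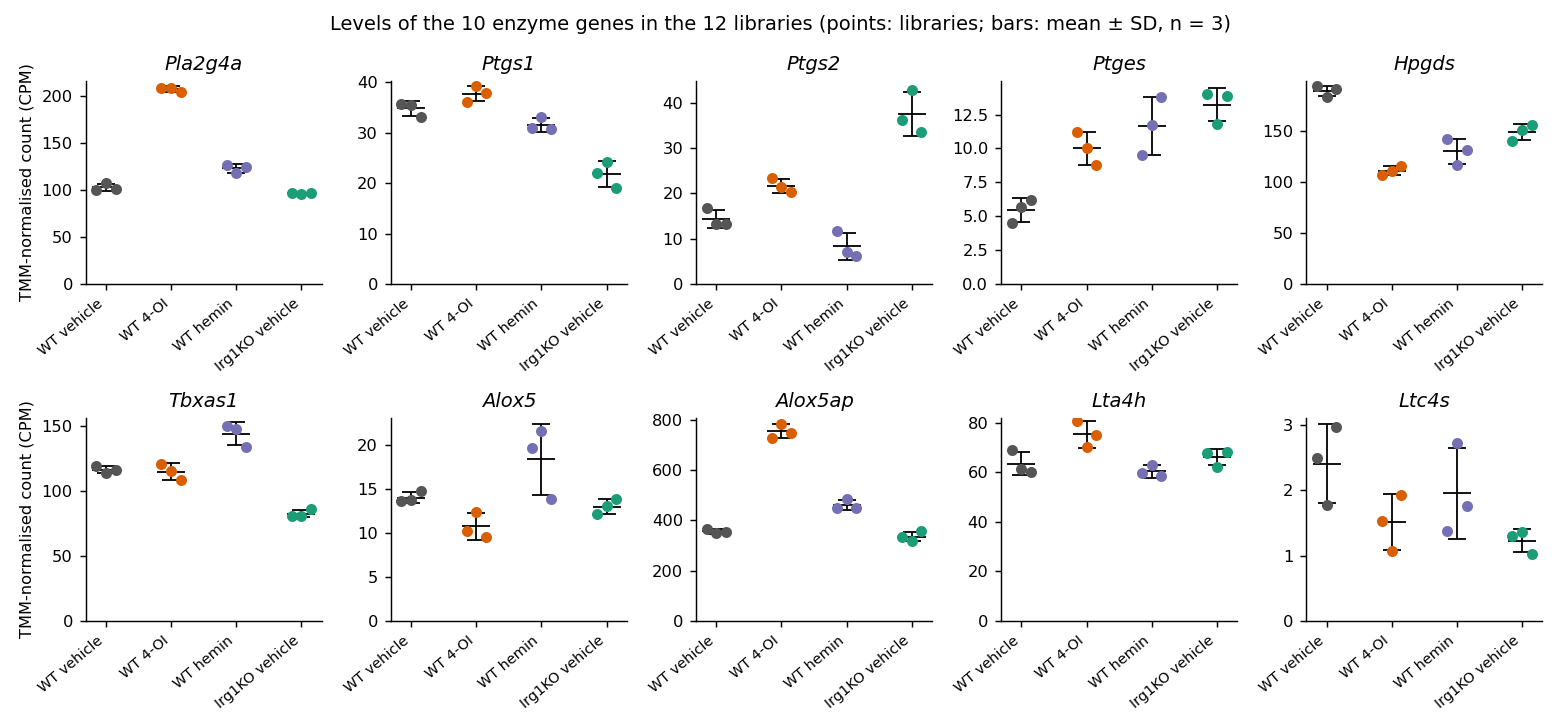
TMM-normalised level of each of the 10 genes in the 12 libraries (y axes: CPM, from 0; points: libraries; bars: mean ± SD, n = 3 per group). Pla2g4a and Alox5ap are highest in the 4-OI libraries, Ptgs2 in the knockout libraries and Tbxas1 in the hemin libraries.

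Per transcript length, Alox5ap was the most abundant of the 10 genes in vehicle cells at 409 ± 9.87 FPKM. Hpgds (68.0 ± 1.95 FPKM) and Tbxas1 (64.6 ± 1.49 FPKM) came next, then Pla2g4a at 38.5 ± 1.16, Lta4h at 33.8 ± 2.60 and Ptgs1 at 13.0 ± 0.482. Alox5 (5.32 ± 0.234 FPKM), Ltc4s (4.75 ± 1.14 FPKM) and Ptgs2 (3.40 ± 0.497 FPKM) followed, with Ltc4s overlapping both of its neighbours, and Ptges was lowest at 1.45 ± 0.283 FPKM. Summed over the 10 genes, FPKM were 626 to 657 with vehicle, 990 to 1048 with 4-OI, 708 to 764 with hemin and 551 to 605 in the knockout. Alox5ap made up 63.6 to 64.1% of that sum with vehicle and 76.6 to 78.4% with 4-OI. Hpgds went from 10.5 to 10.7% with vehicle to 3.48 to 3.69% with 4-OI.

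**Figure D4:**
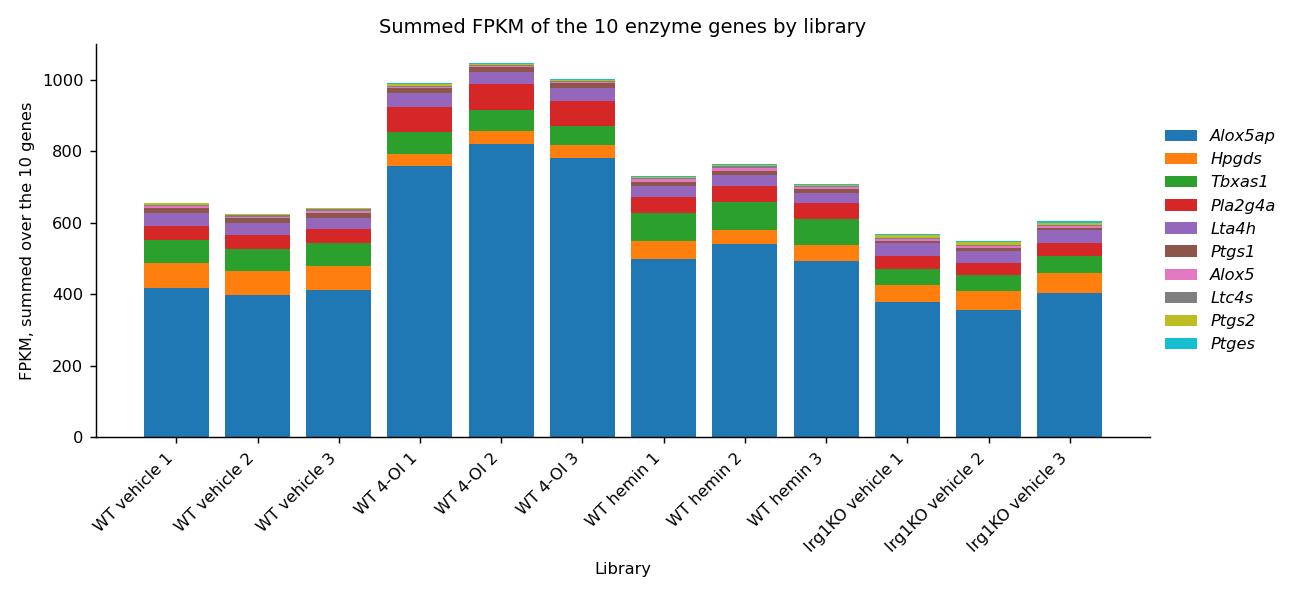
Summed FPKM of the 10 genes in each library (y axis: FPKM, from 0; x axis: library; colours: genes). Alox5ap fills most of each bar, and the 4-OI bars, at 990 to 1048 FPKM, are the tallest.

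Other genes of the pathway were taken from 6 lists of 55 genes, of which 51 were in the tables and 38 were tested. With 4-OI 19 of the 38 were higher and 3 lower, with hemin 13 and 0, and in the knockout 10 and 8. Between 4-OI and hemin 14 were higher and 4 lower with 4-OI. Of all genes tested, 25.4% were called higher and 25.0% lower with 4-OI, and 9.48% and 7.74% with hemin. The shares were 23.5% and 16.3% in the knockout, and 20.6% and 21.7% with 4-OI against hemin. Counts of the single lists below are read against the same shares.

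Among 8 tested genes of arachidonate release and handling, 4 rose and 1 fell with 4-OI, 2 rose with hemin and 4 rose in the knockout. Pla2g6, a calcium-independent phospholipase, rose by 0.31 with 4-OI and 0.40 in the knockout, Mboat7 by 0.29 with 4-OI and Pla2g15 by 0.24 in the knockout. The Mboat7 call was lost by FPKM (0.14, adjusted p = 0.0697). Pla2g7, which hydrolyses platelet-activating factor, was at 255, 300.0 and 273 CPM with vehicle and 1029, 1063 and 1023 CPM with 4-OI, an increase of 1.91 (SE 0.06, adjusted p = 7.71e-23). It rose by 0.51 with hemin and 0.67 in the knockout. Lpcat3, which puts arachidonate back into phospholipids, rose by 0.94, 0.43 and 0.30. Pla2g5, a secreted phospholipase A2, fell by 1.00 with 4-OI (SE 0.20, adjusted p = 6.94e-05), from 5.01 ± 0.647 to 2.54 ± 0.670 CPM.

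Ptges2, a further prostaglandin E synthase, had log2 fold changes of -0.13, -0.09 and 0.09 with 4-OI, with hemin and in the knockout and was not called. Of 5 other prostanoid synthases tested, 1 rose and 1 fell with 4-OI, none was called with hemin and 2 fell in the knockout. Prxl2b, a prostamide and prostaglandin F synthase, was at 15.5 to 16.9 CPM with vehicle and 8.37 to 11.3 CPM with 4-OI (log2 fold change -0.75, SE 0.11, adjusted p = 4.39e-07). Akr1b3, an aldose reductase that can make prostaglandin F2 alpha, rose by 0.35 with 4-OI and fell by 0.28 in the knockout. Ptges3, a constitutive prostaglandin E synthase and HSP90 cochaperone, fell by 0.14 in the knockout (SE 0.05, adjusted p = 0.0141), a call lost without vehicle replicate 1 (-0.12, adjusted p = 0.0597) or knockout replicate 2 (-0.13, adjusted p = 0.0593).

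Among 6 other leukotriene enzymes and lipoxygenases, 3 rose with 4-OI, 2 with hemin, and 1 rose and 2 fell in the knockout. Mgst2, a microsomal transferase that also makes leukotriene C4, was at 1.13, 0.951 and 0.874 CPM with vehicle and 12.9, 12.5 and 12.5 CPM with 4-OI. With hemin it was at 3.82, 3.62 and 4.10 CPM, and in the knockout at 0.578, 0.852 and 0.790 CPM. The 4-OI and hemin libraries lay above all vehicle and knockout libraries, with increases of 3.66 (SE 0.18, adjusted p = 1.57e-19) and 1.94 (SE 0.22, adjusted p = 1.38e-08). Ggt5, which cleaves leukotriene C4 to D4, rose by 2.01 with 4-OI and 0.89 with hemin and fell by 0.32 in the knockout. That last call was lost without vehicle replicate 2 (-0.22, adjusted p = 0.214), vehicle replicate 3 (-0.30, adjusted p = 0.0679), knockout replicate 1 (-0.25, adjusted p = 0.158) or knockout replicate 3 (-0.27, adjusted p = 0.108). Mgst3 fell by 0.45 in the knockout. Dpep2 had 0.19 with 4-OI, a call lost by FPKM (0.00) and without 4-OI replicate 2 (0.08, adjusted p = 0.361) or vehicle replicate 1 (0.18, adjusted p = 0.0663). Dpep1, a dipeptidase that acts on leukotriene D4, was at 13.1 to 15.4 CPM in the knockout and 1.61 to 2.10 CPM in vehicle (log2 fold change 2.89, SE 0.16, adjusted p = 9.54e-18), beside stroma markers that were also higher there.

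Between the 2 leukotriene C4 synthases the FPKM ratio of Mgst2 to Ltc4s was 0.487, 0.541 and 0.345 with vehicle and 9.51, 12.8 and 7.28 with 4-OI. It was 3.06, 1.42 and 2.64 with hemin and 0.490, 0.682 and 0.787 in the knockout. Mgst2 was thus the more abundant transcript of the pair, per length, in all 4-OI and hemin libraries and the less abundant one in all others. Ltc4s counts were low in each, which makes the size of the ratio imprecise.

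Inactivation and transport, the list with the most tested genes, also held the most calls with 4-OI. There 9 of 11 tested genes rose and none fell, where 25.4% of all genes were called higher and 25.0% lower. With hemin 5 rose and none fell, and in the knockout 4 rose and 3 fell. Ptgr1 takes part in inactivating prostaglandins and leukotriene B4. It was at 85.9, 82.9 and 74.9 CPM with vehicle and 748, 806 and 837 CPM with 4-OI (3.29, SE 0.08, adjusted p = 4.01e-18). It rose by 1.30 with hemin and 0.45 in the knockout. The exporters Abcc1, which carries leukotriene C4, and Abcc4, which carries prostaglandins, rose by 1.89 and 1.25 with 4-OI and 0.85 and 0.59 with hemin. Zadh2, a prostaglandin reductase, rose by 0.92 and 0.47, and the fifth gene called with hemin was Cyp4f18.

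In the knockout Hpgd, the dehydrogenase that starts prostaglandin breakdown, fell by 0.70 (SE 0.10, adjusted p = 5.01e-07). Slco2a1, the prostaglandin uptake carrier, was at 24.1, 27.5 and 19.2 CPM there and 3.93, 4.84 and 4.90 CPM in vehicle, an increase of 2.38 (SE 0.14, adjusted p = 6.79e-16). Ephx2, an epoxide hydrolase for epoxy fatty acids, rose by 1.97 (SE 0.25, adjusted p = 3.34e-08). The other calls there were Abcc1 (0.14), Abcc4 (-0.18) and Cyp4f18 (-1.11). Stroma markers were higher in the same libraries, and their part was not tested.

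Of 6 prostanoid receptors tested, 2 rose with 4-OI, 4 rose with hemin, and 1 rose and 1 fell in the knockout. Ptger2, a prostaglandin E2 receptor that raises cyclic AMP, was at 14.1, 12.5 and 12.0 CPM with vehicle, 86.5, 75.3 and 78.2 CPM with 4-OI and 22.7, 22.8 and 25.0 CPM with hemin. The 3 groups did not overlap (2.63, SE 0.08, adjusted p = 1.26e-24 with 4-OI, and 0.87, SE 0.10, adjusted p = 1.45e-08 with hemin). The prostacyclin receptor Ptgir rose by 1.55 and 1.07. Ptger4, the other cyclic AMP-raising receptor for prostaglandin E2, rose with hemin by 0.85 (SE 0.12, adjusted p = 1.70e-06) and had a 4-OI value of -0.25 (adjusted p = 0.135). The difference between the compounds in Ptger4 was -1.10 (SE 0.13, adjusted p = 9.70e-09). The calls of Ptger1, a further prostaglandin E2 receptor, with hemin (0.19) and in the knockout (-0.18) are uncertain: leaving out single vehicle libraries ended both (0.16 without replicate 1 or replicate 2 with hemin, adjusted p = 0.0629 and 0.0574, and -0.12 without replicate 3 in the knockout, adjusted p = 0.0914). By FPKM the hemin value of Ptger1 also turned to -0.01. The receptor that rose in the knockout was Ptgfr, at 0.965 to 1.08 CPM against 0 to 0.173 CPM with vehicle.

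Of the leukotriene receptors only Cysltr1 and Cysltr2 were tested. Cysltr1, a receptor for leukotrienes C4 and D4, fell with 4-OI from 43.4 to 50.9 CPM to 29.3 to 32.6 CPM (log2 fold change -0.62, SE 0.08, adjusted p = 9.69e-09). It was not called with hemin (-0.03) or in the knockout (-0.05). The leukotriene B4 receptors Ltb4r1 and Ltb4r2 did not pass the filter on low counts.

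Set directly against each other, 4-OI and hemin differed in size for several genes that both raised. Ptgr1 was higher with 4-OI by 1.99 (SE 0.07, adjusted p = 1.08e-14), Ptger2 by 1.76 (SE 0.08, adjusted p = 1.43e-19), Mgst2 by 1.71 (SE 0.15, adjusted p = 3.72e-12), Pla2g7 by 1.41, Ggt5 by 1.13 and Abcc1 by 1.04. Prxl2b (-0.90), Cysltr1 (-0.59) and Ptger4 (-1.10) were lower with 4-OI than with hemin. The remaining lower call, Acsl4 (-0.13, adjusted p = 0.0398), was lost in 8 alternatives, among them those without 4-OI replicate 1, 4-OI replicate 2, hemin replicate 2 or hemin replicate 3, with values of -0.12 to -0.10.

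**Figure D5:**
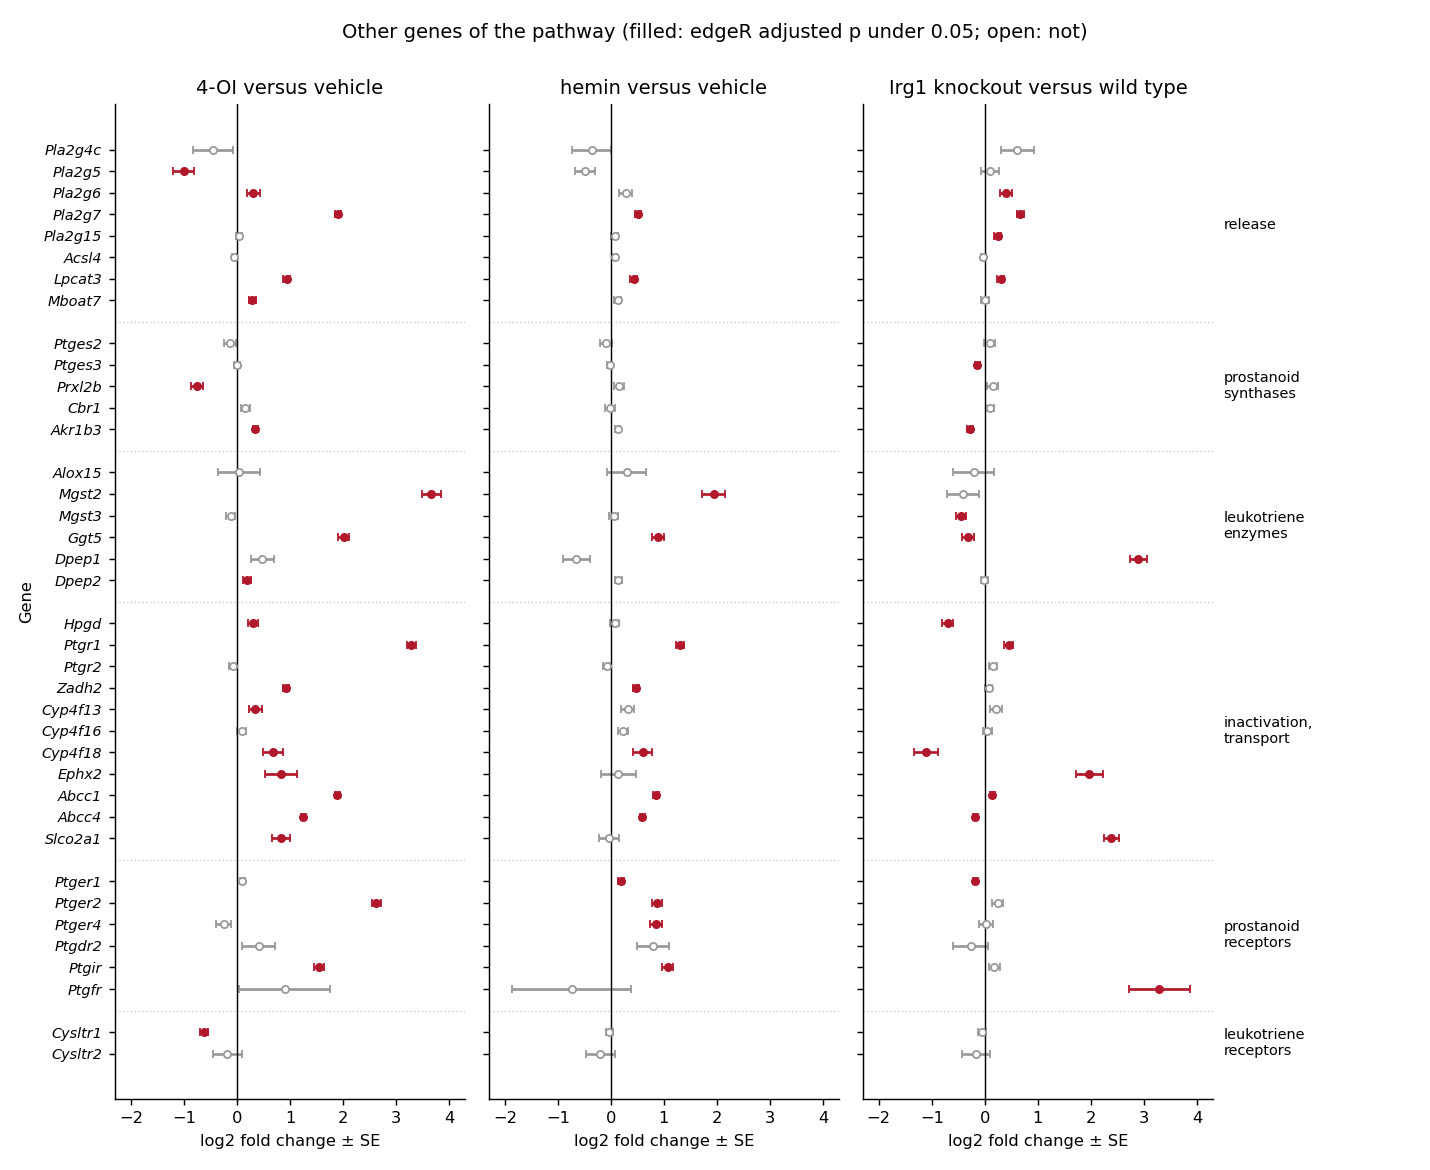
Log2 fold changes of the 38 tested genes of the 6 lists in the comparisons with WT vehicle (x axis: log2 fold change ± SE; y axis: genes by list; filled points: adjusted p under 0.05). Mgst2 and Ptgr1 lie farthest right with 4-OI, at 3.66 and 3.29, and nearer to 0 with hemin, at 1.94 and 1.30.

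Genes with the most similar profile were taken by Pearson correlation of log2 CPM over the 12 libraries, as a description over 4 groups with shared libraries. Pla2g4a was most like Rmc1 (r = 0.996) and Dmxl2 (0.996), and Alox5ap most like Pkm (0.994) and Cd300lb (0.992). For Tbxas1 the nearest were Cd74 (0.985) and Paqr7 (0.976), for Ptgs1 Rassf3 (0.972) and Arrdc1 (0.953), and for Hpgds Lpxn (0.967) and Appl2 (0.965). Ptgs2 lay nearest to Slc38a2 (0.963), and Ptges to Ralgds (0.952) and Slc7a6 (0.932). Values were lower for Alox5, with Ripor2 (0.932) and Fam20c (0.900), Lta4h, with Atg101 (0.915) and Zfp740 (0.905), and Ltc4s, with Ppp4c (0.894) and Polr2g (0.878).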

How the data were processed

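Each of the 12 libraries has 1 deposited table that gives, for every gene, an expected count, an FPKM value and a transcript length. Per the submitters' processing notes, the tools were Bowtie2, HISAT2, RSEM and StringTie and the builds mm39 and GRCm39, without versions. Per the file headers, the first unit is expected counts, as RSEM estimates them; 90.62 to 92.03% are whole numbers. The second is FPKM, deposited as counts scaled by transcript length and library total. The deposited transcript length is given per gene and library. It is not a plain mean over a gene's transcripts, since it differs between libraries. For Ptges it was 4125.79 nucleotides in vehicle replicate 1 and 3692.06 in 4-OI replicate 3. A gene missing from a table was taken as 0, and symbols are those of the tables.

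Expected counts were rounded and fitted in R 4.3.3 with edgeR 4.0.16: filterByExpr (12148 genes kept), TMM scaling, 1 coefficient per group over all 12 libraries, and the robust quasi-likelihood F test with Benjamini-Hochberg adjustment over all genes tested, at a threshold of 0.05. Standard errors (SE) were derived from the log2 fold change and its F statistic. The biological coefficient of variation was 4.71%, and chi-square per degree of freedom between replicates was 2.4 to 4.9, where 1 is counting error. The fit was tested on simulated counts first. Tables were read with Python 3.11.15.

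The 10 genes, the pathway lists and the cell type markers were chosen with earlier results of these data known. By rule the text names the 10 genes; Acod1, Hmox1 and Nqo1 as checks; of each pathway list and comparison, up to 4 called genes by adjusted p averaging at least 1 CPM; and the 2 genes that correlate best with each member, of which 1 is not reported here. Genes outside that rule, such as Ptgfr, Cyp4f18 and Tbxa2r, the ratios, the motifs and the printed promoters were chosen after the values were seen. RefSeq promoter windows on GRCm38.p6 were searched by letters. Alternatives were RLE and upper-quartile factors, DESeq2 1.42.0, no filter, a filter of 10 counts in 6 libraries, limma 3.58.1 on log2 FPKM after adding 1 or 0.1, fits of 2 groups, a replicate block and leaving out each library.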

Additional observations from a re-analysis of the deposited data

How the results depend on the processing

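The count of the 10 genes called stayed within 1.5 times its value in every alternative run: 6 to 8 with 4-OI, 5 to 7 with hemin, 6 to 7 in the knockout and 7 to 9 between 4-OI and hemin. The 6 knockout calls were kept in all 15 alternatives. Of 600 alternative values of the 10 genes, 566 kept direction and call, 24 lost the call, 7 gained one and 3 turned sign. Of 1050 for the checks and the pathway genes named by rule the numbers were 1018, 25, 5 and 2. The alternatives were fitted on all genes, but calls named outside that rule were not compared across them. The 5 values that turned sign were themselves uncalled. For Ptgs1 with 4-OI (-0.02 with 1 and -0.02 with 0.1 added to FPKM) and Tbxas1 with 4-OI the main value was uncalled too. Tbxas1 was at 0.02 without 4-OI replicate 3, the highest of -0.06 to 0.02 over the libraries left out. Ptger1 with hemin was called at 0.19 in the main fit and lost its direction by FPKM (-0.01 with 1 and -0.01 with 0.1 added). The cause was not tested. For the 10 genes, FPKM gained the Tbxas1 call with 4-OI and the Pla2g4a call in the knockout and lost those of Lta4h with 4-OI, Alox5 with hemin and Ptgs1 between the compounds, and with 0.1 added that of Ptgs2 with 4-OI (0.44, adjusted p = 0.0574).

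Replicate numbers are shared across groups. Deviations of same-numbered libraries from their group means correlated at -0.084 to 0.144. With 3 libraries per group, these values cannot show whether a number marks a shared animal or day. With the replicate block, 7, 7, 6 and 8 of the 10 genes were called (4-OI, hemin, knockout, 4-OI against hemin), and 6156, 2159, 4879 and 5181 of all genes; DESeq2 also called 7, 7, 6 and 8. Ltc4s rests on 13 to 42 counts per library.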

Other observations

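Several genes of the 2 pathways were at or near the limit of detection. Alox15, the lipoxygenase of resident macrophages, had group means of 0.687 to 0.950 CPM and was called in no comparison. Ptgis, the prostacyclin synthase, and the leukotriene B4 receptors Ltb4r1 and Ltb4r2 did not pass the filter on low counts. The thromboxane receptor Tbxa2r did not pass it either, at 0.659 ± 0.189 CPM in the knockout and 0.0686 ± 0.0616 CPM with vehicle (n = 3 each). Ptgds, Ptgdr, Alox12b and Oxgr1 were not listed in any of the tables used here and count as 0.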
